A study of Mus musculus with 12 samples.

Results

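The early genes described here are 10 transcripts of mouse splenic B cells: Egr1, Egr2 and Egr3, the nuclear receptor genes Nr4a1, Nr4a2 and Nr4a3, the immediate early response genes Ier2, Ier3 and Ier5, and Zfp36. They were chosen by symbol, each symbol matched 1 row, and they are 10 of 52330 genes with a row in all 3 deposited count tables. Poly(A) RNA was sequenced from spleen B cells that remained after beads had removed CD43-bearing cells. In DKO cells the genes for hnRNP A1 and hnRNP A2B1 were targeted by Cre-loxP deletion. Their products are nuclear proteins that bind RNA and take part in its splicing and export. Protein was not measured here, and part of the transcript counts of both genes remained, as given below. There were 2 libraries of DKO cells and 2 of WT cells kept in culture for 48 h with antibodies to CD40 (1 µg/mL) and to IgM (10 µg/mL), which mimic help from T cells and binding of antigen. Libraries of untreated cells, extracted after isolation without culture, numbered 3 for DKO, 2 for additional WT cells with their own table, and 3 for the numbered WT cells that are set against the DKO cells. No source used here gives the promoter that drives Cre, or the age, sex and strain of the mice. Whether replicates are separate mice is not labelled, and the p-values therefore cover the spread between these samples only.

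The 10 genes belong to the first wave of transcription that follows engagement of the B cell receptor, a wave that needs no new protein and fades as signalling is switched off. EGR1, EGR2 and EGR3 are zinc finger transcription factors that bind GC-rich sites and are induced through ERK and serum response factor, which binds the CArG box. NR4A1, NR4A2 and NR4A3 are nuclear receptors without a known natural ligand, induced through calcium, MEF2 and CREB, and in lymphocytes they are used as markers of recent antigen receptor signalling and restrain the response to it. IER2, IER3 and IER5 are small proteins with roles in transcription, survival and the heat shock response, and ZFP36 (tristetraprolin) binds AU-rich elements and speeds the decay of cytokine transcripts. The transcripts are short-lived, so that their levels follow recent signalling.

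The upstream sequences of 5 of these genes are shown because they hold elements through which early genes are known to be induced. RefSeq windows (GRCm38.p6, a build other than the GRCm39 of the counts) were matched by symbol for 7 of the 10 genes, Egr2, Nr4a1, Nr4a2, Nr4a3, Ier3, Ier5 and Zfp36, and not for Egr1, Egr3 and Ier2. Each run gives the 250 bases before the start site, 5′ to 3′ on the gene's strand. Capitals mark each core of a cAMP response element (TGACG, or CGTCA on the other strand) in the NR4A genes:
Nr4a1 (chr15:101266596-101266845, plus strand): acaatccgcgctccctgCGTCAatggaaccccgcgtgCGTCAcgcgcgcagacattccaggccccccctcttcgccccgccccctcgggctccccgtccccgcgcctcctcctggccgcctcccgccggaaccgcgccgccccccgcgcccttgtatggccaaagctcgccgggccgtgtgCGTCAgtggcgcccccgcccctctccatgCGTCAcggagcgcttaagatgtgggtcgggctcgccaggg
Nr4a2 (chr2:57124004-57124253, minus strand): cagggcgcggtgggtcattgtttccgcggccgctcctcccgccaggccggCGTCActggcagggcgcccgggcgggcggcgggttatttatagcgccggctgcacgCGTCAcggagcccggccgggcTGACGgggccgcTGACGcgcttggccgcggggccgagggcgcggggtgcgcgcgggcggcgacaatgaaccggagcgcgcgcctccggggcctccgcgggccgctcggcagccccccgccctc
Nr4a3 (chr4:48045055-48045304, plus strand): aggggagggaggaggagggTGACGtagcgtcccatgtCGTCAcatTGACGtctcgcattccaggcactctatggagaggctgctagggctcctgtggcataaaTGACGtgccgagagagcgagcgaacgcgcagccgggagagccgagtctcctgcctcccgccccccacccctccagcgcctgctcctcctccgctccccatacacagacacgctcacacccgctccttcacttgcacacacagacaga
In the next pair, capitals mark the CArG box:
Egr2 (chr10:67537619-67537868, plus strand): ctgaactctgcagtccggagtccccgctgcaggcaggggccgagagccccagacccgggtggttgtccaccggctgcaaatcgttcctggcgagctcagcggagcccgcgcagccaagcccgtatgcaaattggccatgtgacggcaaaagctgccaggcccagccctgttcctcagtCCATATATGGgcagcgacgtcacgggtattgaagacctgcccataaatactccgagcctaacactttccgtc
Zfp36 (chr7:28379229-28379478, minus strand): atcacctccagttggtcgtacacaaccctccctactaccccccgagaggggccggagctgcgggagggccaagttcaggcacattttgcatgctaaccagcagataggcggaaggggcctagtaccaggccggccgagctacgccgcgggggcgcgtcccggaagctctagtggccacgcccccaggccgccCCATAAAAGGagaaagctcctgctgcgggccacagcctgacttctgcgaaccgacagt

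Each NR4A window held 4 such cores, a number reached by 0.137% of 32851 RefSeq windows of the same length, and none of the 3 held a CArG box. The Egr2 and Zfp36 windows held 1 CArG box each, and at least 1 was found in 1.47% of all windows. For Egr2, which has 5 windows, the one at the start of the first GENCODE M21 transcript is shown, and it also held 2 of the cores. The other genes shown have 1 window each, whose start site lies 0 bases from that transcript's start for Nr4a1, 152 for Nr4a3, 1025 for Zfp36 and 8965 for Nr4a2. The GC-rich EGR site (GCGNGGGCG, both strands) was found once in the Nr4a1, Nr4a2 and Zfp36 windows and in 4.70% of all windows. The Ier3 and Ier5 windows held none of these 3 elements. A match of letters is a description of the sequence and no evidence of binding.

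Total counts ran from 15090953 to 21731893 per library. DKO libraries kept 14.7% to 17.1% of the stimulated WT mean of Hnrnpa1 counts and 21.2% to 24.4% of Hnrnpa2b1, and 11.3% to 29.2% and 18.6% to 34.4% of the untreated WT means, with untreated DKO number 2 the highest for both genes. All 5 B cell markers (Ms4a1, Cd79a, Cd79b, Pax5 and Cd22) had counts in every group. Markers of T cells summed to 134 to 192 CPM in stimulated DKO, 154 to 175 in stimulated WT, 48.3 to 84.1 in untreated DKO, 123 to 127 in additional WT and 75.3 to 99.6 in untreated WT libraries, against 2185 CPM or more for the B cell markers. Here and below, a marker is called detected in a group where any library had counts. Depending on the fit, 2 to 4 of 8 T cell markers passed the filter on low counts. So did 2 of 5 stromal and endothelial, 2 of 4 platelet and at most 1 of 5 natural killer cell markers. Few genes therefore carry these sums, which do not measure the share of a cell type. The stimulated DKO libraries differed from each other most, with a chi-square of 50.2 per degree of freedom over genes against 7.42 to 25.1 for other pairs of a group. Untreated DKO number 1 and untreated WT number 2 read as female from Xist and Y-linked counts and the other 4 untreated libraries of these 2 groups as male.

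All 10 genes passed the filter on low counts in every fit. Per kilobase of exon, Egr3 led in untreated WT cells with 58.5 ± 9.72 CPM per kb (mean ± SD, n = 3; CPM are counts scaled to the library totals and by TMM over the 12 libraries). Ier5 (41.7 ± 2.33) and Ier2 (41.6 ± 2.60) followed and did not differ from each other beyond their spread. Egr2 (25.2 ± 7.51) and Zfp36 (22.2 ± 5.26) came next, then Egr1 (15.5 ± 3.46) and Nr4a1 (13.7 ± 4.46), with overlapping spreads between neighbours in this run. Ier3 (3.37 ± 0.735), Nr4a3 (2.89 ± 0.470) and Nr4a2 (1.89 ± 0.311) were lowest, and of these Ier3 and Nr4a3 did not differ beyond their spread. In the stimulated cells Ier5 had the highest mean of the 10 in both genotypes, with 46.5 ± 9.65 CPM per kb in DKO and 42.4 ± 1.14 in WT (n = 2 each). Within the EGR family, Egr3 made up 63.0% to 69.8% of the summed level per kb in stimulated DKO, 71.6% to 73.2% in stimulated WT, 59.5% to 60.9% in untreated DKO and 56.1% to 61.2% in untreated WT libraries. Nr4a1 held 77.4% to 84.5%, 69.3% to 73.0%, 75.7% to 77.3% and 70.2% to 77.0% of the NR4A sum in the same order of groups.

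**Figure D1:**
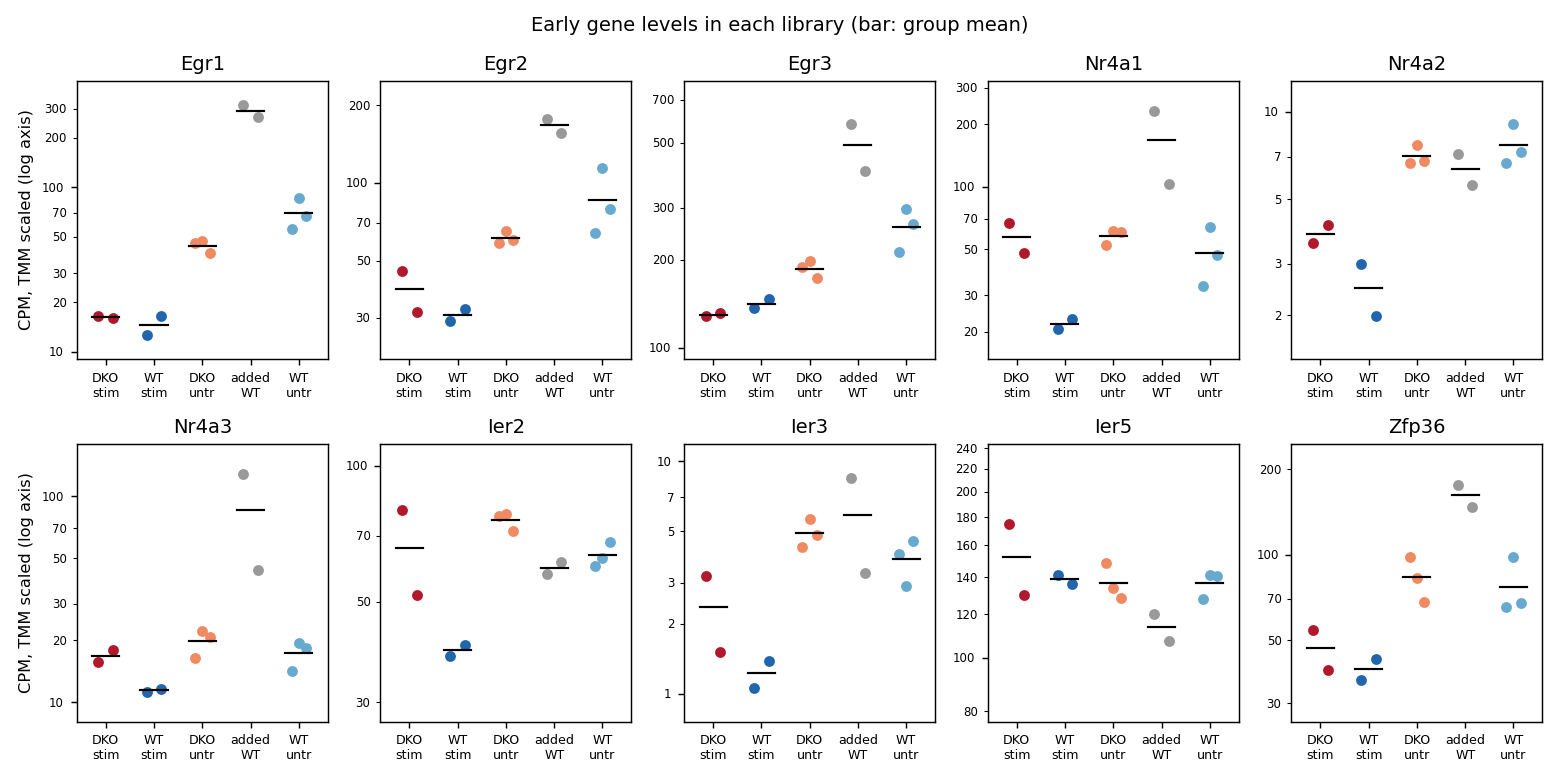
Level of each gene in each of the 12 libraries, in TMM-scaled CPM on a log axis, with the group mean as a bar (stim, stimulated for 48 h; untr, untreated; added WT, the additional untreated WT cells). The stimulated groups lie below the untreated groups for Egr1, Egr2, Egr3, Nr4a2 and Zfp36, and the added WT libraries lie above all others for Egr1, Egr2, Egr3, Nr4a1, Nr4a3 and Zfp36.

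In untreated cells the comparison of DKO with WT asked which early transcripts differ at rest, and 2 of the 3 EGR genes were lower in DKO cells while no NR4A, IER or Zfp36 difference passed the test. Egr1, the EGR gene closest to acute ERK signalling, had 45.6, 46.9 and 39.9 CPM in the 3 DKO libraries and 55.7, 86.3 and 66.6 CPM in the 3 WT libraries. Every DKO value lay below every WT value. The log2 fold change was -0.67 ± 0.15 (± SE; edgeR quasi-likelihood test, Benjamini-Hochberg adjusted p over all tested genes = 0.0155). In bulk RNA, fewer cells that express a gene and less RNA per cell cannot be told apart. Egr3, which with Egr2 restrains lymphocyte activation and lies at chr14:70314652-70320063 (GRCm39, plus strand), had 188, 197 and 172 CPM in DKO and 212, 297 and 265 CPM in WT libraries, again without overlap. Its log2 fold change was -0.49 ± 0.12 (edgeR adjusted p = 0.0207). Egr2 had 58.4, 64.9 and 60.2 CPM in DKO and 64.2, 114 and 78.8 CPM in WT libraries. WT number 1 overlapped the DKO range, and the difference of -0.50 ± 0.18 did not pass (edgeR adjusted p = 0.0826). DESeq2 put Egr2 past the threshold with a log2 fold change of -0.49 (adjusted p = 0.0337).

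The calls for Egr1 and Egr3 turned on single libraries. Egr1 lost its call without DKO number 3 (edgeR adjusted p = 0.0722) or WT number 3 (0.0537), and so did Egr3 (0.0851 and 0.0790). Over all alternatives the adjusted p ran from 6.56e-05 to 0.139 for Egr1, 0.000393 to 0.134 for Egr3 and 0.00403 to 0.194 for Egr2. Without the female libraries Egr1 and Egr3 stayed past the threshold, with -0.50 for Egr1 and -0.37 for Egr3 on the log2 scale. Across all 13561 tested genes 19.5% passed in either direction and 10.6% were lower, so that 2 of 10 called is near the share of all genes called. Stromal and endothelial markers summed to 25.3 to 34.8 CPM in DKO libraries, where 3 of 5 had counts and Col1a1 and Col3a1 were at 0, and to 53.3 to 73.4 CPM in WT libraries, where 4 of 5 had counts and Col3a1 was at 0. Their part in the EGR differences was not tested. The values of DKO and WT did not overlap for 3 of the 10 genes and for 39.1% of all genes.

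Among the receptors, Nr4a1 had 52.3, 61.3 and 60.3 CPM in DKO and 33.1, 64.3 and 46.7 CPM in WT untreated libraries. The groups overlapped through WT number 2, the highest of the 6, and the difference of 0.26 ± 0.20 did not pass (edgeR adjusted p = 0.388). Without WT number 2 it was 0.52 (edgeR adjusted p = 0.0379), and in the 4 male libraries 0.60 (edgeR adjusted p = 0.00995). The call for Nr4a1 at rest therefore turned on WT number 2, and over all alternatives its adjusted p ran from 0.00995 to 0.854. Nr4a3 (16.4, 22.2 and 20.6 CPM in DKO, 14.1, 19.4 and 18.3 in WT) and Nr4a2 (6.66, 7.69 and 6.75 in DKO, 6.69, 9.10 and 7.25 in WT) overlapped between the genotypes, with log2 differences of 0.18 ± 0.16 and -0.14 ± 0.17. Of the IER genes, Ier2 came closest to the threshold. It had 77.3, 78.1 and 71.8 CPM in DKO libraries, all above the 60.0, 62.4 and 67.7 CPM of WT libraries, with a log2 fold change of 0.24 ± 0.08 (edgeR adjusted p = 0.0612). Ier3, Ier5 and Zfp36 overlapped, at 0.34 ± 0.23, -0.01 ± 0.08 and 0.10 ± 0.17. WT number 2 had the highest level of the 3 WT libraries for 8 of the 10 genes and WT number 1 the lowest for 9. The matching shares of all genes were not computed, so no trait of the early genes is read from this.

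In cells stimulated for 48 h the DKO and WT comparison asked which early transcripts differ under sustained receptor and CD40 engagement, and Nr4a1 was the 1 gene of the 10 that passed the test. The gene lies at chr15:101152150-101172676 (GRCm39, plus strand). It had 66.8 and 47.9 CPM (1287 and 787 counts) in the 2 DKO libraries against 20.7 and 23.1 CPM (408 and 431 counts) in the 2 WT libraries. Both DKO values lay above both WT values, and the DKO mean was 262% of the WT mean. The log2 fold change was 1.32 ± 0.19 (edgeR adjusted p = 0.00639). Nr4a1 stayed past the threshold in all 9 alternatives tried for this comparison, at 1.11 to 1.54 on the log2 scale, with an edgeR or DESeq2 adjusted p of 2.68e-08 to 0.0150. Over all tested genes 11.3% passed and 5.09% were higher in DKO cells, so that 1 of 10 is near that share.

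**Figure D2:**
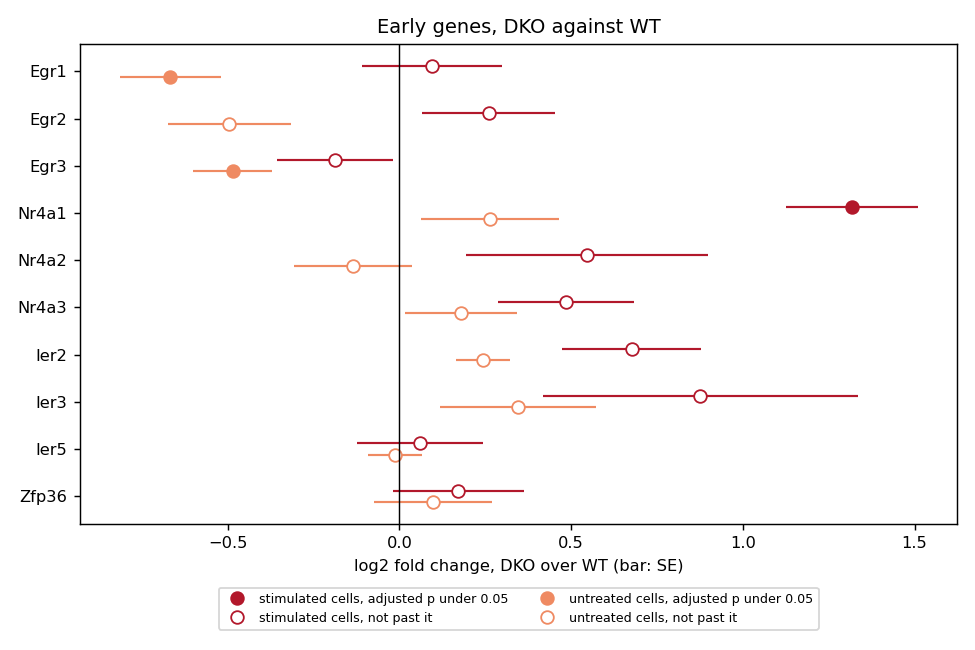
Log2 fold change of each gene, DKO over WT, in stimulated and in untreated cells, with the standard error as a bar and filled points for an edgeR adjusted p under 0.05. Nr4a1 is filled at 1.32 in stimulated cells, and Egr1 and Egr3 are filled at -0.67 and -0.49 in untreated cells.

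The other receptors showed smaller differences that did not pass. Nr4a3 had 15.6 and 17.8 CPM in stimulated DKO and 11.2 and 11.6 CPM in stimulated WT libraries, without overlap, at 0.48 ± 0.20 (edgeR adjusted p = 0.141). Nr4a2, the lowest of the family, had 3.53 and 4.08 CPM in DKO and 2.99 and 1.98 CPM in WT libraries, again without overlap, at 0.55 ± 0.35 (edgeR adjusted p = 0.326). Of the genes encoding IER proteins, Ier2 had 79.9 and 51.7 CPM in DKO and 38.0 and 40.2 CPM in WT libraries. Both DKO values were higher, DKO number 1 by more than DKO number 2. The difference of 0.68 ± 0.20 missed the threshold (edgeR adjusted p = 0.0621), and it passed with DESeq2 at 0.70 (adjusted p = 0.0298), with 1.49e-05 to 0.335 over all alternatives. Ier3, whose product limits apoptosis in other cell types, was detected at 62 and 25 counts in DKO and 21 and 26 counts in WT libraries, and its difference of 0.88 ± 0.46 did not pass (edgeR adjusted p = 0.233). Leaving out 1 DKO library leaves the other alone, so that the spread then comes from the WT pair only, whose chi-square per degree of freedom was 9.68, and the lone library is assumed to vary like that pair. On that footing, without DKO number 2, Nr4a1, Egr2, Ier2 and Ier3 passed in edgeR, at 1.54, 0.50, 0.96 and 1.32 on the log2 scale, and without DKO number 1 Nr4a1 and Nr4a3 passed, at 1.11 and 0.62.

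The EGR genes that were lower in DKO cells at rest did not differ past the threshold after stimulation. Egr1 had 16.5 and 16.1 CPM in stimulated DKO and 12.6 and 16.5 CPM in stimulated WT libraries, at 0.09 ± 0.20. Egr3 had 128 and 131 CPM in DKO and 137 and 146 CPM in WT libraries, at -0.19 ± 0.17, and its DKO values were the lower ones without overlap. Egr2 had 45.7 and 31.6 CPM in DKO and 29.1 and 32.3 CPM in WT libraries, which overlapped, at 0.26 ± 0.19. Zfp36 (0.17 ± 0.19) and Ier5 (0.06 ± 0.18) overlapped between the genotypes. In all, 6 of the 10 genes did not overlap, as did 61.0% of all genes, and 9 of 10 log2 differences were above 0, against 47.8% over all genes. The median of the 10 was 0.37 against -0.03 over all genes. Dendritic cell markers summed to 69.9 to 77.5 CPM in stimulated DKO libraries, where 5 of 6 had counts and Clec9a was at 0, and to 39.5 to 45.9 CPM in stimulated WT libraries, where 6 of 6 had counts. Stromal and endothelial markers summed to 49.0 to 62.1 CPM in DKO and 106 to 115 CPM in WT libraries, with 4 of 5 detected and Col3a1 at 0 in both. Plasma cell markers, 5 of 5 detected, summed to 583 to 591 CPM in DKO and 455 to 519.8 CPM in WT libraries, and B cell markers to 3303 to 3894 and 4225 to 4406 CPM in the same order. Monocyte and macrophage markers, 7 of 7 detected, summed to 56.0 to 62.6 CPM in DKO and 64.2 to 73.0 CPM in WT libraries, and platelet markers, with Ppbp at 0 in both, to 3.65 to 5.45 and 1.18 to 1.67 CPM. The part of these cells in the Nr4a1 difference was not tested.

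Stimulated WT cells were set against untreated WT cells to see where the early genes stand after 48 h, and 9 of the 10 were lower, while Ier5 did not differ past the threshold. Culture, stimulation and deposited table differ together between these groups and cannot be told apart. Egr1 had 12.6 and 16.5 CPM in stimulated WT libraries and 55.7, 86.3 and 66.6 CPM in untreated ones, a stimulated mean of 20.9% of the untreated mean. The ranges were far apart, and Egr1 had the steepest decrease of the 10 (-2.22 ± 0.19, edgeR adjusted p = 3.24e-06). Egr2 (29.1 and 32.3 CPM stimulated, 64.2, 114 and 78.8 untreated) fell by 1.44 on the log2 scale (edgeR adjusted p = 0.000274). Egr3 (137 and 146 CPM stimulated, 212, 297 and 265 untreated) fell by 0.83 (edgeR adjusted p = 0.000482). The 3 EGR genes therefore fell by unequal amounts, and the Egr1 share of the EGR level per kb was 6.64% to 7.93% in stimulated and 15.1% to 16% in untreated WT libraries.

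Nr4a1, whose untreated WT values were given above, was at 45.5% of its untreated mean in stimulated WT cells (-1.10 ± 0.23, edgeR adjusted p = 0.00271). Its call was lost in 2 of 11 alternatives, among them the additional WT counted as WT (-2.10, adjusted p = 0.05003), and the value ran from -2.10 to -0.81 over all alternatives, with an adjusted p of 2.6e-11 to 0.0812. Nr4a2 had 2.99 and 1.98 CPM in stimulated and 6.69, 9.10 and 7.25 CPM in untreated WT libraries (-1.58 ± 0.24, edgeR adjusted p = 0.000310). Nr4a3 had 11.2 and 11.6 CPM in stimulated and 14.1, 19.4 and 18.3 CPM in untreated WT libraries (-0.56 ± 0.18, edgeR adjusted p = 0.0274). All 3 receptor genes were below every untreated WT value. The Nr4a3 call was the least stable, and it was lost when any of 4 libraries was left out: untreated WT number 2 (adjusted p = 0.0909) or number 3 (0.0926), and stimulated WT number 1 (0.134) or the unnumbered one (0.113), with 0.0161 to 0.323 over all alternatives. Ier3 (-1.60 ± 0.35), Ier2 (-0.66 ± 0.16) and Zfp36 (-0.93 ± 0.21) were also lower (edgeR adjusted p = 0.00334, 0.00485 and 0.00359), and Zfp36 lost its call without stimulated WT number 1 (adjusted p = 0.0501, and 3.97e-09 to 0.0501 over all alternatives). Ier5, induced by heat shock factor and a regulator of it, was at 142 and 136 CPM in stimulated and 128, 142 and 141 CPM in untreated WT libraries. Of all tested genes 40.6% passed and 22.8% were lower, so that 9 of 10 lower is above the share of all genes. The 9 genes did not overlap between the groups, as did 66.9% of all genes. B cell markers summed to 4225 to 4406 CPM in stimulated and 2486 to 2785 CPM in untreated WT libraries, with 5 of 5 detected. T cell markers summed to 154 to 175 CPM in stimulated and 75.3 to 99.6 CPM in untreated WT libraries, with 8 of 8 detected but 3 of 8 past the filter. Stromal and endothelial markers, with Col3a1 at 0 in both, summed to 106 to 115 CPM in stimulated and 53.3 to 73.4 CPM in untreated WT libraries. Dendritic cell markers, 6 of 6 detected, summed to 39.5 to 45.9 CPM in stimulated and 57.9 to 78.7 CPM in untreated ones, and plasma cell markers, 5 of 5 detected, to 455 to 519.8 and 639 to 778 CPM. The part of other cells in these differences was not tested.

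In DKO cells 6 of the 10 genes were lower after stimulation, and Nr4a1 was not among them. Nr4a1 had 66.8 and 47.9 CPM in stimulated DKO and 52.3, 61.3 and 60.3 CPM in untreated DKO libraries. The stimulated values lay on either side of the untreated ones, and the log2 fold change was 0.00 ± 0.22 (edgeR adjusted p = 0.999). Egr1 had 16.5 and 16.1 CPM in stimulated and 45.6, 46.9 and 39.9 CPM in untreated DKO libraries and fell by 1.42 on the log2 scale (edgeR adjusted p = 0.000104). Egr3 (-0.50 ± 0.14), Egr2 (-0.64 ± 0.21), Nr4a2 (-0.87 ± 0.24), Ier3 (-1.02 ± 0.33) and Zfp36 (-0.81 ± 0.21) were the other genes that fell (edgeR adjusted p = 0.0137, 0.0349, 0.0137, 0.0316 and 0.00964). The share over all genes was 33.0%, with 16.8% lower, and 6 of the 10 genes did not overlap, against 53.9% of all genes. Nr4a3 (-0.22 ± 0.18), Ier2 (-0.19 ± 0.15) and Ier5 (0.17 ± 0.13) did not pass. B cell markers summed to 3303 to 3894 CPM in stimulated and 2185 to 2599 CPM in untreated DKO libraries, with 5 of 5 detected. T cell markers summed to 134 to 192 CPM in stimulated and 48.3 to 84.1 CPM in untreated DKO libraries, with 8 of 8 detected but 3 of 8 past the filter. Stromal and endothelial markers, with Col3a1 at 0 in both and Col1a1 at 0 in untreated ones, summed to 49.0 to 62.1 CPM in stimulated and 25.3 to 34.8 CPM in untreated DKO libraries. Plasma cell markers, 5 of 5 detected, summed to 583 to 591 CPM in stimulated and 691 to 775 CPM in untreated ones, and platelet markers to 3.65 to 5.45 and 2.2 to 3.07 CPM (Ppbp at 0 in stimulated ones). The part of these cells was not tested. Without stimulated DKO number 2, Egr2 (adjusted p = 0.230), Ier3 (0.199) and Zfp36 (0.0832) lost their calls and Ier5 passed at 0.36 (0.0300). Without stimulated DKO number 1, Nr4a2 lost its call (0.0702) and Ier2 passed at -0.52 (0.00579), and Ier3 was at -1.66. Egr2 also lost its call without untreated DKO number 1 (0.0529), 2 (0.0861) or 3 (0.0681), and Ier3 without number 2 (0.0950) or 3 (0.0639). Over all alternatives the adjusted p ran from 0.000196 to 0.230 for Egr2, 0.00775 to 0.199 for Ier3, 7.43e-07 to 0.0832 for Zfp36, 0.00770 to 0.0702 for Nr4a2, 0.0300 to 0.787 for Ier5 and 0.00579 to 0.583 for Ier2.

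**Figure D3:**
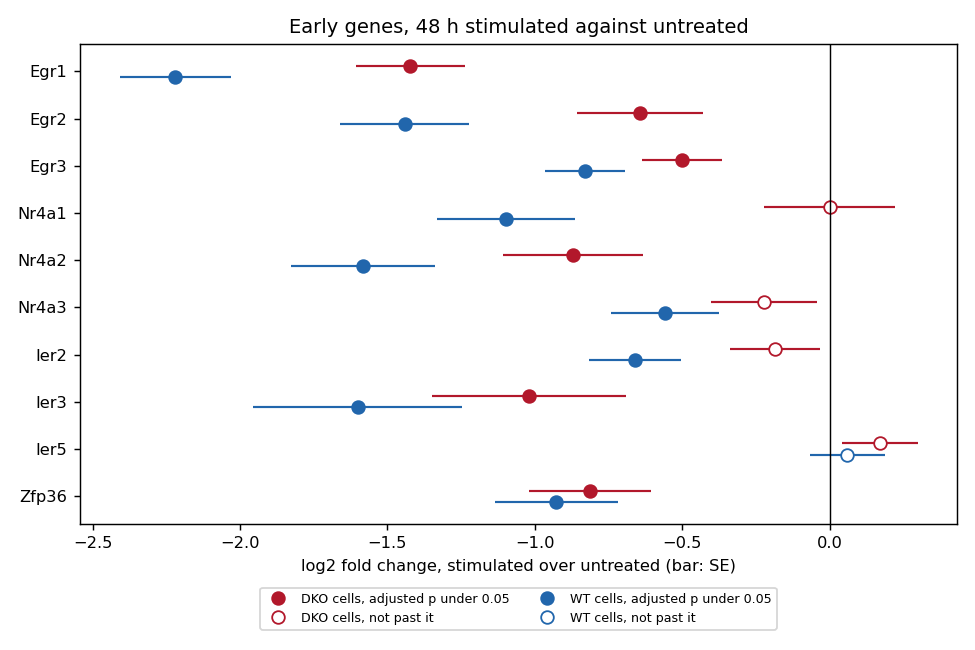
Log2 fold change of each gene, stimulated over untreated, in DKO and in WT cells, with the standard error as a bar and filled points for an edgeR adjusted p under 0.05. Nr4a1 lies at 0.00 in DKO and at -1.10 in WT cells, and the DKO point lies to the right of the WT point for all 10 genes.

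Whether the genotype difference itself differed between stimulated and untreated cells was tested with an interaction term. None of the 10 genes passed in edgeR, where 4 had an unadjusted p under 0.05 (Egr1, Egr2, Nr4a1 and Ier2), none passed in DESeq2, and 3 passed in edgeR without a filter on low counts. Nr4a1 had the lowest adjusted p, at a difference of 1.10 ± 0.32 on the log2 scale (edgeR adjusted p = 0.251). Egr1 was at 0.80 ± 0.25 (0.273), Egr2 at 0.80 ± 0.30 (0.337) and Ier2 at 0.47 ± 0.22 (0.409). Over all genes 0.140% passed and 1802 of 15006 genes had an unadjusted p under 0.05. All 10 interaction values were above 0, as were 55.3% of all genes, and their median was 0.53 against 0.05 over all genes. Without stimulated DKO number 2, Nr4a1 at 1.32 and Ier2 at 0.76 passed (edgeR adjusted p = 0.0400 and 0.0173), and over all alternatives the adjusted p ran from 5.03e-05 to 0.672 for Nr4a1 and 0.0173 to 0.820 for Ier2.

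The additional WT cells show how far the same genes can lie apart among untreated WT cells. They were higher than the numbered WT cells for 6 of the 10 genes. Egr1 had 316 and 268 CPM in the 2 additional columns and 55.7, 86.3 and 66.6 CPM in the 3 numbered WT libraries (2.10 ± 0.16, edgeR adjusted p = 1.84e-05). Nr4a3 had 128 and 43.7 CPM in the additional and 14.1, 19.4 and 18.3 CPM in the numbered libraries (2.33 ± 0.36, edgeR adjusted p = 0.000575). Nr4a1 had 231 and 104 CPM in the additional and 33.1, 64.3 and 46.7 CPM in the numbered libraries (1.82 ± 0.32, edgeR adjusted p = 0.00128). For these 3 genes every additional value lay above every numbered one, and column 1 exceeded column 2. Without column 1, Nr4a3 was at 1.36 and Nr4a1 at 1.14, both past the threshold (edgeR adjusted p = 0.00149 and 0.0175, and 1.8e-56 to 0.00331 and 2.36e-47 to 0.0175 over all alternatives). Egr2, Egr3 and Zfp36 were higher by 0.99, 0.95 and 1.10 on the log2 scale (edgeR adjusted p = 0.00256, 0.00149 and 0.000580), while Nr4a2 (-0.24 ± 0.23), Ier2 (-0.07 ± 0.10), Ier3 (0.64 ± 0.39) and Ier5 (-0.24 ± 0.10) did not pass. The difference of Egr1 was thus larger in size than that of DKO against WT at rest. With the additional WT counted as WT, Egr1 stayed lower in untreated DKO cells, at -1.89, but lost its call (edgeR adjusted p = 0.139). Of all genes 54.8% passed and 26.3% were higher, and 7 of the 10 did not overlap, against 71.8% of all genes. Monocyte and macrophage markers, 7 of 7 detected in both groups, summed to 187 to 233 CPM in additional and 65.2 to 70.6 CPM in numbered libraries. B cell markers summed to 3327 to 3742 CPM in additional and 2486 to 2785 CPM in numbered libraries, T cell markers, with Cd3e and Cd8a at 0 in the additional ones, to 123 to 127 and 75.3 to 99.6 CPM, and dendritic cell markers, with Siglech at 0 in the additional ones, to 90.6 to 104 and 57.9 to 78.7 CPM. Natural killer cell markers, 5 of 5 detected, summed to 1.59 to 2.07 CPM in additional and 0.500 to 1.48 CPM in numbered libraries, and platelet markers, 4 of 4 detected, to 4.01 to 7.46 and 1.15 to 3.01 CPM. The part of these cells was not tested. Group, deposited table, annotation and any batch cannot be told apart.

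A wider list of 32 early response genes outside these families held calls in both directions between the genotypes. In untreated cells 4 of 31 tested were higher and 6 lower in DKO cells, with a median of -0.11 against -0.0060 over all genes. The counts of this and the following lists stand beside the shares of all genes called in either direction, which were 19.5% for DKO against WT untreated, 11.3% stimulated, 33.0% for DKO stimulated against untreated, 40.6% for WT, and 54.8% for additional against numbered WT. The medians over all genes were -0.0060, -0.029, -0.011, -0.021 and 0.0025 on the log2 scale in the same order. For the interaction the share called by edgeR was 0.140%, and 1802 of 15006 genes had an unadjusted p under 0.05. The DESeq2 count over all genes is given in the section on how the results depend on the processing. Nfkbia, the inhibitor of NF-κB, was higher (0.44 ± 0.06), with 522, 564 and 543 CPM in DKO and 392, 401 and 393 CPM in WT libraries. Csrnp1 was higher too (0.45 ± 0.10), and the NF-κB cofactor gene Nfkbiz (-0.52 ± 0.09) and the antiproliferative gene Btg2 (-0.49 ± 0.11) were lower (edgeR adjusted p = 0.00371, 0.0152, 0.00638 and 0.0148). In stimulated cells 8 of 31 were higher and 4 lower in DKO cells, with a median of 0.40 against -0.03 over all genes. Fos, among those higher, had 0.253 to 0.321 CPM in stimulated WT libraries and passed the filter on low counts only through the DKO pair. The stress response gene Gadd45b had 70.8 and 48.3 CPM in DKO and 18.3 and 14.0 CPM in WT libraries (1.81 ± 0.22, edgeR adjusted p = 0.00346), a difference of the same direction as that of Nr4a1. Jun, an AP-1 subunit, had 22.5 and 22.3 CPM in DKO and 5.93 and 7.65 CPM in WT libraries (1.66 ± 0.21, edgeR adjusted p = 0.00400). Myc, which drives growth of activated B cells, was higher by 1.08 and the transcription factor gene Klf6 was lower, at -1.0 (edgeR adjusted p = 0.0122 and 0.0102). In the interaction test edgeR called 1 gene of this list, Gadd45b (1.59 ± 0.24, adjusted p = 0.0252), and 16 had an unadjusted p under 0.05. DESeq2 called 4, Atf3, Fosl2, Gadd45b and Jun, all with values above 0 and, like the genes DESeq2 called in the lists that follow, named after their values were seen.

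**Figure D4:**
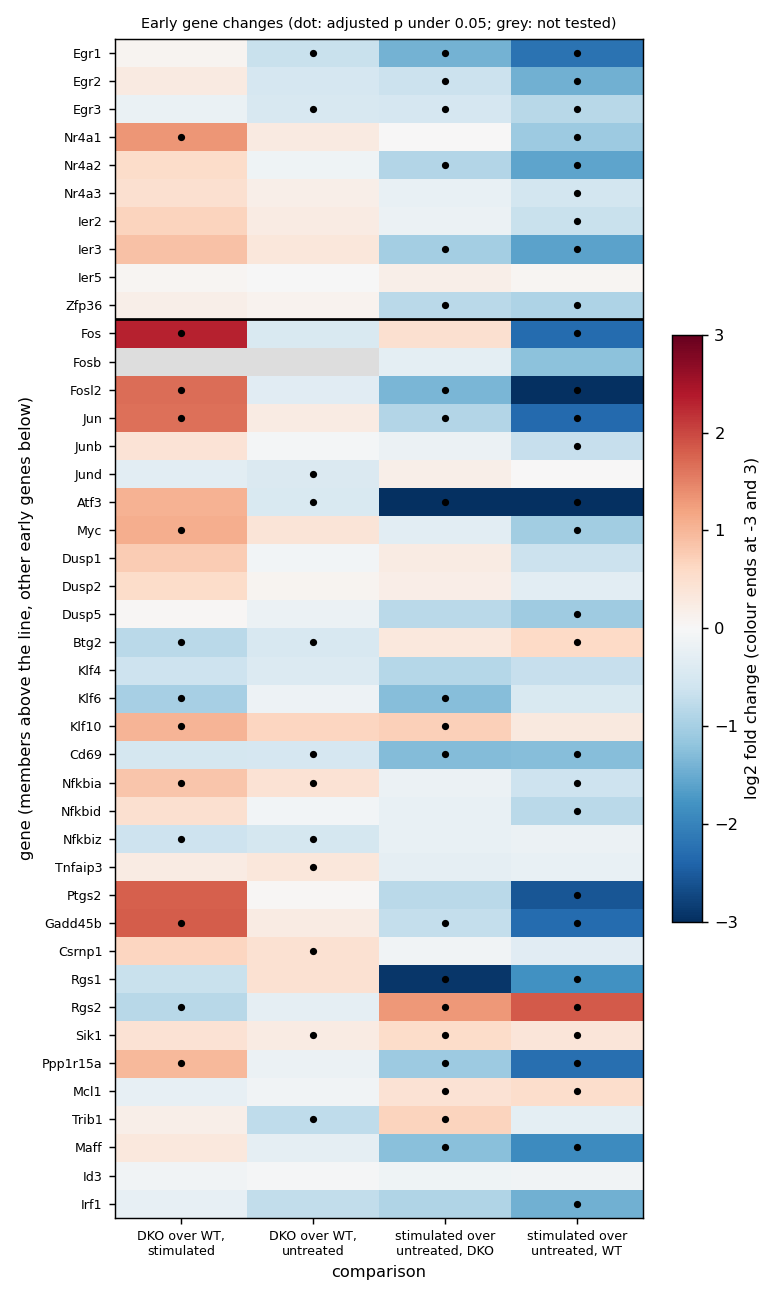
Log2 fold change (colour) of the 10 genes, above the line, and of the 32 other early response genes, below it, in 4 comparisons, with a dot for an edgeR adjusted p under 0.05 and grey where a gene was not tested. In stimulated over untreated WT cells 9 of the 10 and 16 of the 32 are lower with a dot, against 6 and 9 in DKO cells.

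After stimulation 16 of 32 other early genes were lower and 4 higher in WT cells, and in DKO cells 9 were lower and 5 higher. Fos, among the lower ones in WT cells, had 0.253 to 0.321 CPM in stimulated WT libraries and passed the filter only through other groups. Atf3, a stress-induced repressor, was lower in both DKO (-3.43 ± 0.28) and WT cells (-4.98 ± 0.32) (edgeR adjusted p = 2.95e-06 and 2.55e-07). In WT cells Fosl2 (-3.41), Jun (-2.34) and Gadd45b (-2.31) followed, and in DKO cells the regulator of G protein signalling gene Rgs1 (-2.92), the activation marker gene Cd69 (-1.29) and Klf6 (-1.29). The additional WT cells had 16 higher and 7 lower of 32 against the numbered WT cells. Fos, an AP-1 subunit, was among the higher ones (2.86 ± 0.33, edgeR adjusted p = 0.000118), and so were Fosl2 (1.81), Rgs2 (1.19) and Mcl1 (0.60).

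Inputs of the NR4A genes were read from a list of 15 genes for calcineurin, NFAT, MEF2 and CREB, all tested. In untreated cells 2 were lower and 0 higher in DKO cells. Rcan1, a calcineurin inhibitor that NFAT itself induces, had 17, 21.6 and 16.4 CPM in DKO and 26.8, 32.3 and 28.3 CPM in WT libraries (-0.68 ± 0.13, edgeR adjusted p = 0.0105). Nfatc1, which encodes an inducible NFAT protein, was lower as well (-0.59 ± 0.08, edgeR adjusted p = 0.00319). In stimulated cells 2 were lower and 0 higher in DKO cells. Rcan1 had 16.6 and 13.3 CPM in DKO and 26.4 and 26.1 CPM in WT libraries (-0.88 ± 0.18, edgeR adjusted p = 0.0207). Mef2c, a MEF2 factor of B cells, was lower as well (-0.91 ± 0.19, edgeR adjusted p = 0.0211). The median log2 difference of the list was -0.045 in untreated and -0.20 in stimulated cells, DKO over WT. After stimulation 7 of 15 were higher in WT and 6 in DKO cells and none was lower. Mef2c was higher by 0.66 in DKO and 1.23 in WT cells, and Mef2a by 0.64 and 0.87. The additional WT cells had 8 higher and 3 lower against the numbered ones, with Creb1 at 1.18 and Cabin1 at -1.53.

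For the EGR genes, 8 corepressors and serum response factor genes were listed. In untreated cells 2 of 8 were lower and 0 higher in DKO cells. Nab2, an EGR corepressor that EGR proteins induce, was at -0.43 ± 0.12, and Mrtfb, a cofactor of serum response factor, at -0.51 ± 0.13 (edgeR adjusted p = 0.0394 and 0.0299). In stimulated cells none of 8 passed between the genotypes in edgeR or DESeq2, and 1 had an unadjusted edgeR p under 0.05. The median log2 difference of the list was -0.17 in untreated and -0.30 in stimulated cells, DKO over WT. After stimulation Elk3, a partner of serum response factor, was higher in DKO (0.71) and WT cells (1.09), as was Mrtfa (0.72 and 0.70), and Elk4 passed in WT cells (0.54). The additional WT cells had 2 higher and 2 lower, with Elk4 at 1.93 and Mrtfa at -0.80. Of the paralogues Egr4, Ier5l, Zfp36l1, Zfp36l2 and Zfp36l3, 2 were tested in untreated and 3 in stimulated cells, with 0 calls between the genotypes in edgeR or DESeq2 and 0 unadjusted edgeR p under 0.05. Zfp36l1 was higher after stimulation in DKO (0.43 ± 0.11) and WT cells (0.53 ± 0.11), the opposite direction to Zfp36 (edgeR adjusted p = 0.0103 and 0.00235). In the additional WT cells 3 of 3 were higher, Zfp36l1 by 1.23 and Zfp36l2 by 0.56.

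Genes reported as targets of EGR2, EGR3 or NR4A1 in lymphocytes numbered 12, of which 10 were tested. The list does not separate targets reported as induced from those reported as repressed. Its counts and medians are therefore no reading of the activity of these factors. In untreated cells 3 were lower and 0 higher in DKO cells. The chemokine gene Ccl4 had 4.02, 2.13 and 2.81 CPM in DKO and 6.54, 10.4 and 5.40 CPM in WT libraries (-1.33 ± 0.31, edgeR adjusted p = 0.0190). Ccl3, a chemokine gene of the same family, was lower by 1.37, and Dgka, which encodes a kinase that removes diacylglycerol, by 0.52 on the log2 scale (edgeR adjusted p = 0.0366 and 0.0138). In stimulated cells 5 of 10 were higher and 0 lower in DKO cells. Socs3, a cytokine signalling inhibitor, had 10.8 and 7.30 CPM in DKO and 1.27 and 2.94 CPM in WT libraries (2.04 ± 0.40, edgeR adjusted p = 0.0168). Batf, an AP-1 factor of activated B cells, was higher by 0.99, the costimulatory gene Cd86 by 0.87 and Myc as given above (edgeR adjusted p = 0.0135 for Batf and 0.0281 for Cd86). The median log2 difference of the list was -0.18 in untreated and 0.55 in stimulated cells, DKO over WT. In the interaction test edgeR called 0 of them, against 0.140% of all genes, with 6 unadjusted p under 0.05, against 1802 of 15006 genes. DESeq2 called 3, Batf, Cd86 and Socs3, with values above 0. After stimulation 7 were lower and 2 higher in WT cells, and 1 lower and 2 higher in DKO cells. Dgkz was among the higher ones in both, at 0.71 in DKO and 0.70 in WT cells. In the additional WT cells 3 were higher and 4 lower, with Cblb at 0.97 and Dgkz at -1.02.

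Of 11 AU-rich transcripts reported to be bound by ZFP36, Ier3 among them, 2 of 10 tested were lower in untreated DKO cells and 0 higher, while Zfp36 itself did not differ past the threshold. Il10, an anti-inflammatory cytokine gene, had 1.52, 0.388 and 0.200 CPM in DKO and 6.89, 5.10 and 3.60 CPM in WT libraries (-2.89 ± 0.54, edgeR adjusted p = 0.00897), and the other was Ccl3. In stimulated cells 2 of 6 tested were higher in DKO cells, the low cytokine genes Csf2 and Lif, named here after their values were seen. Csf2 had 32 and 24 counts in DKO and 5 and 1 counts in WT libraries, and Lif had 26 and 12 counts in DKO and 2 and 0 counts in WT libraries. Both passed the filter on low counts only through the DKO pair, where they were high, so their calls are no evidence about the list. After stimulation 8 of 10 were lower in WT cells and 1 in DKO cells, where that gene was Ier3. Among those lower in WT cells, Il10, Il23a, Cxcl1, Csf2 and Lif had at most 0.253 CPM in stimulated WT libraries. They passed the filter on low counts only through other groups, so that lower was the only call open to them in WT cells. The counts of 8 and 1 are therefore no support for a fall of the list or for a difference between the genotypes. Il10 was already at 0.200 to 1.52 CPM in untreated DKO libraries, which left it little room to fall. The median log2 difference of the list was -0.036 in untreated and 1.33 in stimulated cells, DKO over WT. Ptgs2, with 2.08 to 2.98 CPM in stimulated DKO and 0.214 to 1.17 CPM in stimulated WT libraries, also needed the DKO pair to pass the filter. The stimulated median includes Csf2, Lif and Ptgs2 and is therefore no support for a rise of the list. In the interaction test edgeR called 0 genes of the list, with 7 unadjusted p under 0.05, against 1802 of 15006 over all genes. DESeq2 called 2, Cxcl1 and Il10. Cxcl1 had 0 counts in both stimulated WT libraries. Il10 was near the floor too, at 0.156 to 0.365 CPM in stimulated DKO and 0.0535 to 0.101 CPM in stimulated WT libraries. In the additional WT cells 3 were higher and 1 lower, with Ptgs2 at 1.23.

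Heat shock genes, listed beside Ier5 and as a sign of handling, were higher in DKO cells where they passed. In untreated cells 4 of 10 were higher and 0 lower, with Hspe1 at 0.52 ± 0.08, Hsp90ab1 at 0.35 ± 0.08 and Hspd1 at 0.22 ± 0.06 (edgeR adjusted p = 0.00390, 0.0172 and 0.0461). Hspa1b, with a lower level, also passed, at 1.56 ± 0.39 (edgeR adjusted p = 0.0237). Hspa1a and Dnajb1 were among those that did not pass (edgeR adjusted p = 0.150 and 0.164). In stimulated cells 2 of 9 were higher, among them Hspe1 at 0.90 ± 0.20 (edgeR adjusted p = 0.0243). The other, Hspa1b, had 0.107 to 0.355 CPM in stimulated WT libraries and passed the filter on low counts only through the DKO pair. The median log2 difference of the list was 0.27 in untreated and 0.50 in stimulated cells, DKO over WT. After stimulation 6 of 10 were lower in DKO and 7 in WT cells, and 7 were lower in the additional WT cells against the numbered ones. The 7 lower in stimulated WT cells include Hspa1a and Hspa1b, at 0.152 to 0.214 and 0.107 to 0.355 CPM in stimulated WT libraries. Both passed the filter in that fit only through other groups. Ier5 itself passed in none of these comparisons. The part of handling in the early gene differences was not tested.

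The genes whose level across the 10 libraries of 4 groups was most like that of each of 3 early genes were taken among 10052 genes with a mean of 5 CPM or more. For Egr1 they were Prpf40b (r = 0.99), Atp6v0c (r = 0.98) and Mcfd2 (r = 0.98). For Nr4a1 they were Alas1 (r = 0.94), Agap3 (r = 0.94) and Repin1 (r = 0.93), and for Zfp36 they were C030006K11Rik (r = 0.98), Timm21 (r = 0.98) and Fth1 (r = 0.97). The libraries share their groups and stimulated and untreated cells stand apart, so these coefficients describe the order of groups as well as of libraries. Within groups, stimulated DKO number 1 had the higher level for 7 of the 10 genes, untreated DKO number 2 the highest for 8 and additional column 1 the higher for 9. The matching shares of all genes were not computed, so these counts are a description only.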

How the data were processed

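The authors deposited raw counts of each Ensembl gene for 12 libraries of poly(A) RNA, in 3 tables. Per the submitters' processing notes, the tools were FastQC 0.10.1, cutadapt 1.9.1, HISAT2 2.2.1 and HTSeq 0.6.1, with build GRCm39. No source used here names the strand setting or the annotation release. Zfp36 is overlapped on the other strand by Gm44710, which had 0 to 6 counts. The tables held 55359 genes for untreated, 56691 for stimulated and 55401 for additional WT cells, and coordinates in the last are of an older build. The authors' exonic lengths served for values per kb, and 12 deposited FPKM columns were not used. Of the stimulated columns, 1 WT column is numbered 3, while the labels of the stimulated WT samples are numbered 1 and 2, so it was used without a number, and the additional columns were mapped to their group only.

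The counts went into edgeR 4.0.16 (R 4.3.3; two-sided quasi-likelihood test, TMM scaling, filterByExpr with a minimum count of 10 and total of 15, Benjamini-Hochberg adjustment over all tested genes, threshold 0.05). Each genotype comparison and the additional WT comparison had a fit of its own, and stimulated against untreated cells and the interaction came from 1 fit over 10 libraries. Standard errors are the absolute log2 fold change over the square root of F. Printed CPM were scaled over the 12 libraries and genes common to the tables. Each result was recomputed with DESeq2 1.42.0, RLE scaling, no filter, a stricter filter (at least 1 CPM in all libraries of 1 group), a block for replicate number, 1 library left out at a time, a single fit over 4 groups, the additional WT counted as WT, and leaving out the libraries that read as female. In the fit over 10 libraries the block used numbered libraries only, which left out the unnumbered stimulated WT library. The pipeline was tested on simulated counts. A further B cell marker and 1 other marker list are not reported here, and the B cell sums leave that marker out. The 10 genes, the lists, the naming rule (up to 4 genes of each list and comparison past the threshold with the smallest p and a mean of 5 CPM or more, and the 3 genes most like Egr1, Nr4a1 and Zfp36 each by Pearson correlation of log2 CPM with a prior count of 2) and these alternatives were chosen with earlier results of these data known. Counts of members are read beside the share of all genes called.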

Additional observations from a re-analysis of the deposited data

Results flagged for a closer look

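Gadd45b, a stress response gene outside the EGR, NR4A and IER families, had a genotype difference that differed between stimulated and untreated cells by an interaction test, at 1.59 ± 0.24 on the log2 scale (edgeR adjusted p = 0.0252). No other listed gene passed this test in edgeR, while DESeq2 called 4 of the other early response genes, 3 of the reported targets and 2 of the AU-rich transcripts. Gadd45b was at 1.81 ± 0.22 in stimulated and 0.25 ± 0.10 in untreated cells, DKO over WT, and had 115, 92.1 and 89.0 CPM in untreated DKO and 84.0, 80.1 and 82.2 CPM in untreated WT libraries, whose groups did not overlap.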

How the results depend on the processing

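Over the 10 genes, 6 comparisons and all alternatives, 606 values kept direction and side of the threshold, 28 lost a call, 21 gained one and 25 changed sign; the cause of the changes was not tested. For DKO against WT untreated, the reported count was 2638 genes, 2 of them early genes. The replicate block gave 786 and 1, the additional WT counted as WT 319 and 0, and leaving out 1 library 923 to 2779 and 0 to 3. For stimulated against untreated cells and the interaction, the replicate block used numbered libraries only and so left 1 stimulated WT library. Its counts there cannot be put down to blocking alone. For DKO against WT stimulated (1625 and 1), no filter gave 2847 and 2, a single fit 3429 and 2, DESeq2 2 early genes, and leaving out 1 library 576 to 5977 and 1 to 4. For stimulated against untreated WT (6097), the replicate block gave 2862, the additional WT counted as WT 2437, and leaving out 1 library 3557 to 5435, with 7 to 9 early genes. For DKO the ranges were 3965 to 5074 (reported 4952) and 4 to 6. For the interaction (21 and 0), DESeq2 gave 174, no filter 491 and 3, the replicate block 1, and leaving out 1 library 1 to 1244 and 0 to 2. In the stimulated genotype comparison and the interaction, the highest counts of all genes came without stimulated DKO number 2 and the lowest without the unnumbered stimulated WT library. For the additional WT (7871), leaving out 1 library gave 5978 to 7803 and 6 to 7.

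Early genes that changed sign were, with the additional WT counted as WT in untreated cells, Nr4a1 (-0.76), Nr4a3 (-1.23), Ier5 (0.073) and Zfp36 (-0.45), and, without the female libraries, Nr4a2 (0.045). Egr1 (-1.89) and Egr3 (-0.95) lost their calls with the additional WT counted as WT (edgeR adjusted p = 0.139 and 0.134), as did Nr4a1 and Nr4a3 in stimulated against untreated WT (0.05003 and 0.123). Leaving out 1 library turned the sign of genes that had not passed, within these log2 ranges: DKO against WT untreated, Ier5 -0.063 to 0.030 and Zfp36 -0.030 to 0.30; stimulated, Egr1 -0.089 to 0.30, Ier5 -0.12 to 0.26 and Zfp36 -0.026 to 0.38; DKO stimulated against untreated, Nr4a1 -0.25 to 0.21, Ier2 -0.52 to 0.088 and Ier5 -0.046 to 0.36; interaction, Ier3 -0.053 to 1.01, Ier5 -0.11 to 0.31 and Zfp36 -0.13 to 0.33; additional WT, Ier3 -0.19 to 1.14.

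Same-numbered untreated libraries did not deviate together (r = -0.353, -0.351 and 0.139), so the numbers were not taken as pairs. The highest r was between DKO number 1 and WT number 2 (0.440), which both read as female, followed by DKO number 2 and WT number 1 (0.320). Neither the main fit nor the block for replicate number holds a term for this shared deviation. Under the replicate block Egr3 lost its call in untreated cells (edgeR adjusted p = 0.0569). For stimulated against untreated cells the block used numbered libraries only, which left 1 stimulated WT library. There Nr4a1, Nr4a3 and Ier2 in WT and Egr2 and Ier3 in DKO cells lost their calls. Blocking and the library left out cannot be told apart in these losses. No paired analysis was possible for DKO against WT stimulated, because their labels share the numbers 1 and 2 but 1 stimulated WT column could not be matched to the label numbered 2, which left 1 shared number among the columns. With 2 stimulated libraries a group, Ier3 at 21 to 62 counts had a difference of 0.88 with an SE of 0.46. Leaving out 1 of 2 libraries of a group takes the spread from the other libraries of the fit and assumes that the lone library varies like them.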
